A study of Homo sapiens with 4 samples.

Results

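The 31 genes described here encode the enzymes of cholesterol synthesis, the proteins that sense cholesterol, and those that carry, esterify or export it. They were taken as a named list, out of 19821 protein-coding genes (chromosomes 1 to 22 and X), and all 31 were found in the gene table. The list was chosen with earlier results of these data known, so shares set beside those of all genes are descriptions only. γH2AX is histone H2AX carrying a phosphate on serine 139, a mark of DNA double-strand breaks. It was mapped by CUT&Tag, in which an antibody brings a transposase to chromatin to cut and tag the DNA nearby. The cells were HepG2, a human liver cancer line, and the groups were lipid overload with the γH2AX antibody (sample title HEPG2-PAOA), lipid overload with IgG, mock with the γH2AX antibody (HEPG2-DMSO) and mock with IgG. Each group was 1 sample, and the labels give neither dose nor duration of the lipid treatment. Only the peak lists of the 2 γH2AX samples enter the results. The IgG samples were not analysed here, and the values therefore stand without a background from control antibody. All results come from 1 cell line, and with 1 library per condition no difference has a replicate check and no test was run. Peak lists do not allow a check of the cell line by marker genes.

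Cholesterol is built from acetyl-CoA. Cytosolic enzymes first make mevalonate and turn it into isoprenoid diphosphates, which are joined to squalene. Squalene is then closed to lanosterol, and a chain of enzymes in the endoplasmic reticulum trims lanosterol to cholesterol. When sterols are scarce, the escort protein SCAP takes the transcription factor SREBP2 from the endoplasmic reticulum to the Golgi, where it is cut and released to switch on these genes. When sterols are plentiful, the INSIG proteins hold SCAP back. In liver cells cholesterol also arrives in lipoproteins, leaves lysosomes through NPC2 and NPC1, and is stored as esters made by SOAT1.

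The lipid-overload list held 27296 peaks and the mock list 8542. Judged by the genome background recorded with the peaks, the library from lipid overload was 2.62 times as deep as that from mock. Peak height is given as the number of fragments over the summit, solved from each peak's deposited fold and p. The lowest in any peak was 4 fragments in lipid overload and 3 in mock. Intervals in parentheses are exact 95% intervals for counting error alone, and PCR copies of 1 molecule are not separate observations. A gene end is the window 1 kb either side of either end of the gene in the NCBI RefSeq gene table (GRCh38, the same coordinates as hg38).

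Promoter windows of 300 bases, from 250 before to 50 after an annotated start, are in the RefSeq table (GRCh38.p14) for 27 of the 31 genes. ACAT2, FDFT1, SQLE and ABCG1 have none there. Motifs were searched on both strands: the CCAAT box (CCAAT), the GC box (GGGCGG), the E-box (CACGTG), a 10-base sterol regulatory element, its core CACCCCA, which is part of the longer element, and the nuclear receptor direct repeat (the kind with a 4-base spacer). Capitals below mark every match to a motif, whichever its strand. The first 3 windows belong to the genes with the most fragments in lipid overload.

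NPC2, chr14:74493463-74493762, minus strand: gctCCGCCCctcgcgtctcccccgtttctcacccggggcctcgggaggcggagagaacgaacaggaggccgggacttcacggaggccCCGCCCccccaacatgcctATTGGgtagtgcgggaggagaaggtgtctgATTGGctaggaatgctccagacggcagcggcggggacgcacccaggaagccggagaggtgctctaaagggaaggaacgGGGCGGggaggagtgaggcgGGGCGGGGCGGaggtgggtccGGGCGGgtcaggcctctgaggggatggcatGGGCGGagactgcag
LSS, chr21:46228725-46229024, minus strand: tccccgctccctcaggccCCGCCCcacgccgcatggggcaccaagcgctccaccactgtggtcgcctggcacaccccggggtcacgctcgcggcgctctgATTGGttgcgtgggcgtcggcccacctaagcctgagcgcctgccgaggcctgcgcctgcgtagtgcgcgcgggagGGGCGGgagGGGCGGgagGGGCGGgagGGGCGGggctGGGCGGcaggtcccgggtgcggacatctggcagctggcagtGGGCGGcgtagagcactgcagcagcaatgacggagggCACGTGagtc
GGPS1, chr1:235328320-235328619, plus strand: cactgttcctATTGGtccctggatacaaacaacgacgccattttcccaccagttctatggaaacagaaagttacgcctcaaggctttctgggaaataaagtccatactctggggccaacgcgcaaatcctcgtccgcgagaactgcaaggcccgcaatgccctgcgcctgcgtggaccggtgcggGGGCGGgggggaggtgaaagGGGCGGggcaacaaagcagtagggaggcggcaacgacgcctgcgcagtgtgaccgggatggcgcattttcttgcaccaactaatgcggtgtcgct

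The next 3 windows show a gene marked in both lists (MVD), one marked at a gene end in mock only (DHCR7) and one whose peak lay at a start inside the gene (PMVK). No base of the DHCR7 window lies under a peak of either list, and no base of the MVD window under a mock peak.

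MVD, chr16:88663042-88663341, minus strand: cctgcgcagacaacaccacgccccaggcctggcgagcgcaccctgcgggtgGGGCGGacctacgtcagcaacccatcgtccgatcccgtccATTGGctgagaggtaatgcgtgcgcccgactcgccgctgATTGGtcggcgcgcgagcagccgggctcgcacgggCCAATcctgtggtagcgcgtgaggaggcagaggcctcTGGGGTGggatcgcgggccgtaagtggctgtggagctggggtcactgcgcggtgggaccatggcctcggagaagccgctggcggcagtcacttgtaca
DHCR7, chr11:71448344-71448643, minus strand: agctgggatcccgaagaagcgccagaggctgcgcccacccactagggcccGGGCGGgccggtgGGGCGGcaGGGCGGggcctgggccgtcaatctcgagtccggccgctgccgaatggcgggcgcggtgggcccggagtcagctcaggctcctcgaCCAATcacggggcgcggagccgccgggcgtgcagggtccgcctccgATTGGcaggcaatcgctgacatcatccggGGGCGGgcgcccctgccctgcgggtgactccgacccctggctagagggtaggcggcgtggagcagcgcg
PMVK, chr1:154936670-154936969, minus strand: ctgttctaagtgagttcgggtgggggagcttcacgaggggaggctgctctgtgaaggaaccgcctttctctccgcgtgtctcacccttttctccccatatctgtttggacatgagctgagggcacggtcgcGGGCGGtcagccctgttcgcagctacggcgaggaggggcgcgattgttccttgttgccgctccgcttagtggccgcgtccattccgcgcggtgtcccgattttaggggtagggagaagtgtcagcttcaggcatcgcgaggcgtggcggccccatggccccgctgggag

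SREBF2, the gene of SREBP2, was added after its values had been seen, because the summits of both lists lay in the sterol regulatory element of its promoter.

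SREBF2, chr22:41832855-41833154, plus strand: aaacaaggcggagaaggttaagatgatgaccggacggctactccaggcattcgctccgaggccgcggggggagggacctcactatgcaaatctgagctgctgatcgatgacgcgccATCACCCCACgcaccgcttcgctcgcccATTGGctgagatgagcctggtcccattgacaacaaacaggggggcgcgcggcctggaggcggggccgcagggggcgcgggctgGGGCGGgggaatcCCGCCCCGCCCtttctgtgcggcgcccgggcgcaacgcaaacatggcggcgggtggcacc

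Peaks lay at the ends of most sterol genes. In lipid overload 22 of the 31 genes (71.0%, 52.0 to 85.8) had a gene-end peak, where 43.4% of all protein-coding genes had one. In mock 14 genes (45.2%, 27.3 to 64.0) had one, where 13.4% of all protein-coding genes did. Both lists marked 11 genes (35.5%, against 12.1% of all genes). Lipid overload alone marked another 11 (35.5%, against 31.4%), and mock alone marked 3 (9.68%, against 1.34%). The share marked by lipid overload alone is bounded by the number already marked in mock. Of the 17 sterol genes without a mock gene-end peak, 11 (64.7%) had one in lipid overload, against 36.2% of all genes without one in mock. With the lipid-overload list reduced to its 16373 peaks of at least 8 fragments, the lowest mock height scaled by depth, 20 genes (64.5%) kept a gene-end peak, against 35.8% of all genes. With both lists at 8542 peaks the lipid-overload count was 17 (54.8%, against 25.9%). The mock count rested on small peaks: at a −log10 q of at least 5 it was 3 (9.68%), against 3.84% of all genes.

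**Figure D1:**
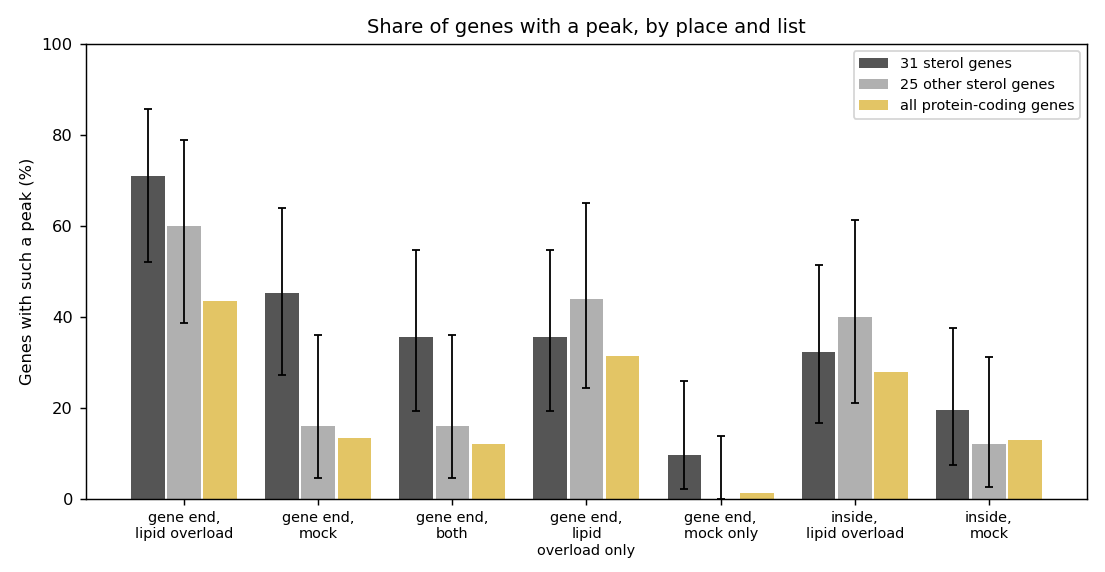
Share of genes (%) with a peak at a gene end or inside the gene away from its ends, in lipid overload, mock, both or 1 list only. Bars stand for the 31 sterol genes, 25 other sterol genes and all protein-coding genes, with exact 95% intervals on the sterol bars. The sterol genes stand at 71.0% in lipid overload and 45.2% in mock at gene ends, against 43.4% and 13.4% of all protein-coding genes.

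Peaks at these genes held more fragments in lipid overload, the deeper library, than in mock. The strongest gene-end peak (highest −log10 q) of a marked sterol gene had a median of 18.5 fragments in lipid overload (range 6 to 48, n = 22 genes) and 7 in mock (range 3 to 13, n = 14 genes). Over all marked protein-coding genes the medians were 12 and 7. None of the 28 lipid-overload peaks at the ends of sterol genes rested on 5 fragments or fewer, against 5 of the 14 mock peaks. This cut was not scaled for the depth ratio of 2.62. Of the 28, 10 were among the 2729 best-ranked of the 27296 lipid-overload peaks. Of these, 2 were at MVD and the others at NPC2, LSS, GGPS1, INSIG1, SREBF2, NSDHL, SCAP and SQLE. The same shares over the gene-end peaks of all genes were not counted, so neither count sets the sterol genes apart.

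**Figure D2:**
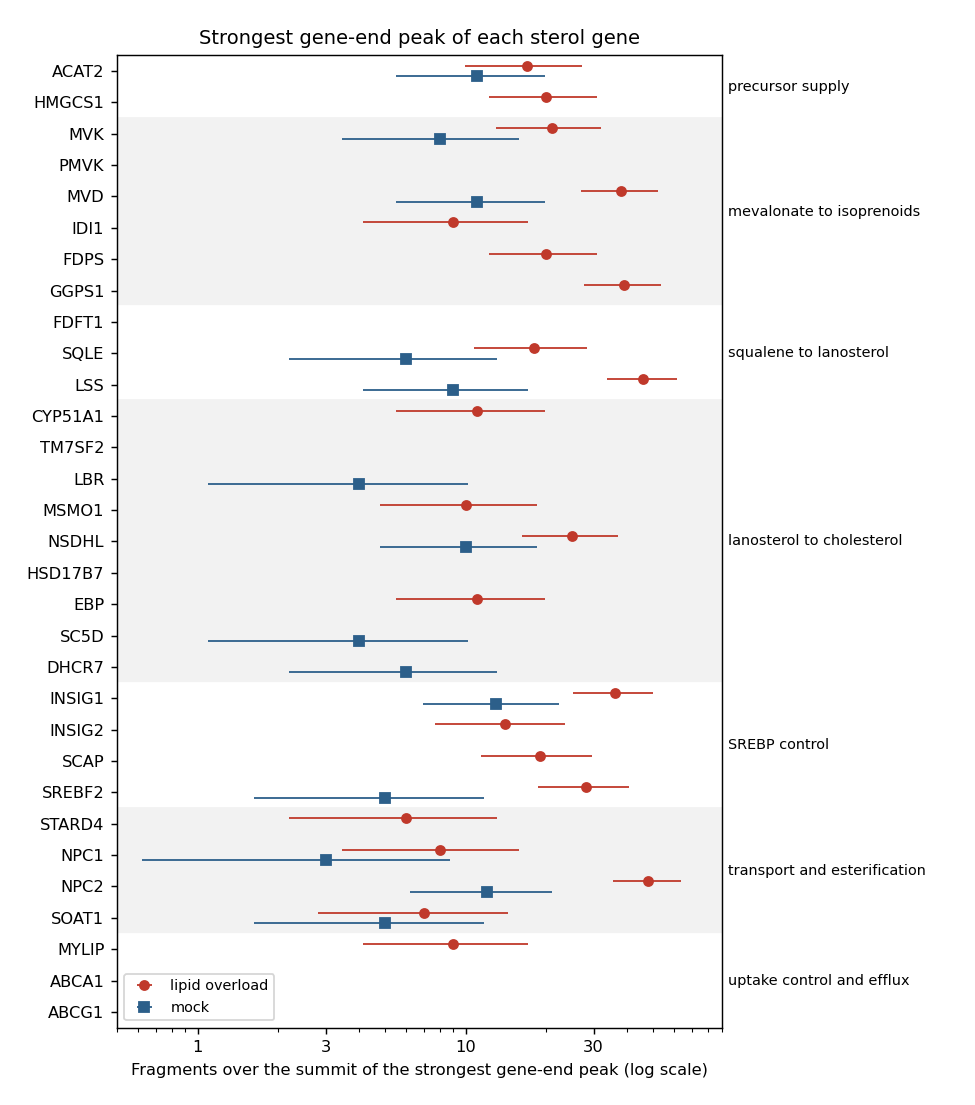
Fragments over the summit of the strongest gene-end peak (horizontal, log scale) for each of the 31 sterol genes, grouped by pathway step from top to bottom. Circles stand for lipid overload and squares for mock, with exact 95% Poisson intervals, and a missing symbol means that no gene-end peak was listed. NPC2 and LSS have the most fragments in lipid overload, 48 and 46, and INSIG1 the most in mock, 13. The symbols of MVD stand for its 5′ end in lipid overload and its 3′ end in mock.

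Both genes of the first step were marked at an end in lipid overload and 1 of them in mock. These counts are too small to set beside the 43.4% and 13.4% of all protein-coding genes. ACAT2, the thiolase that joins acetyl-CoA units, had 17 fragments in lipid overload (9.90 to 27.2) and 11 in mock (5.49 to 19.7). The peaks overlapped, and a start of the antioxidant enzyme gene SOD2 lies in both. HMGCS1, which condenses the product with another acetyl-CoA, had 20 fragments in lipid overload (12.2 to 30.9), with the summit 81 bp past an annotated start, and no mock peak at or in the gene.

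At gene ends, 5 of the 6 genes that lead from mevalonate to isoprenoids were marked in lipid overload and 2, MVK and MVD, in mock. Over all protein-coding genes these shares were 43.4% and 13.4%. Counted at any annotated start, a rule chosen after seeing the data, all 6 had a lipid-overload peak, against 45.5% of genes with a start. By this rule 3 of them, MVK, IDI1 and GGPS1, also had a mock peak, against 14.0%. MVK, the kinase that acts first on mevalonate, had 21 fragments in lipid overload (13.0 to 32.1) and 8 in mock (3.45 to 15.8). Both peaks also hold a start of MMAB, a gene of cobalamin metabolism that lies next to MVK. Smaller lipid-overload peaks, of 7 and 8 fragments, lay inside MVK and at its 3′ end. PMVK, the next kinase, had 14 fragments in lipid overload (7.65 to 23.5), 229 bp upstream of its annotated start and away from both ends of the gene in the gene table. No mock peak was listed at PMVK.

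MVD, the decarboxylase that makes isopentenyl diphosphate, was marked at both ends in lipid overload and at its 3′ end in mock. At its 5′ end lipid overload had 38 fragments (26.9 to 52.2), 84 bp upstream of the start and in a CCAAT box, and mock had no peak. The 5′ peak also holds a start of SNAI3-AS1. At its 3′ end, where a start of the NADPH oxidase subunit gene CYBA lies in the peaks of both lists, lipid overload had 36 fragments (25.2 to 49.8) and mock 11 (5.49 to 19.7). A further lipid-overload peak of 21 fragments lay beside it. MVD thus counts as marked in both lists through its 3′ end alone, at the start of CYBA.

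IDI1, the isomerase of isopentenyl diphosphate, had 2 peaks in lipid overload at its outermost start, of 9 (4.12 to 17.1) and 6 fragments (2.20 to 13.1). A larger lipid-overload peak of 13 fragments (6.92 to 22.2) lay at a start 7.58 kb further in, where mock also had 8 (3.45 to 15.8). FDPS, which makes farnesyl diphosphate, had 20 fragments in lipid overload (12.2 to 30.9), 158 bp upstream of the start, and none in mock. An end of the pyruvate kinase gene PKLR lies in the same peak. GGPS1, which makes geranylgeranyl diphosphate for protein prenylation, had 39 fragments in lipid overload (27.7 to 53.3) and 10 in mock (4.80 to 18.4), in overlapping peaks at a start 1.35 kb into the gene. The lipid-overload peak is wide enough to reach the gene-end window and the mock peak is not, so the 1 kb rule counts GGPS1 under lipid overload only. GGPS1 and IDI1 therefore had mock peaks at a promoter that the count of gene ends leaves out.

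**Figure D3:**
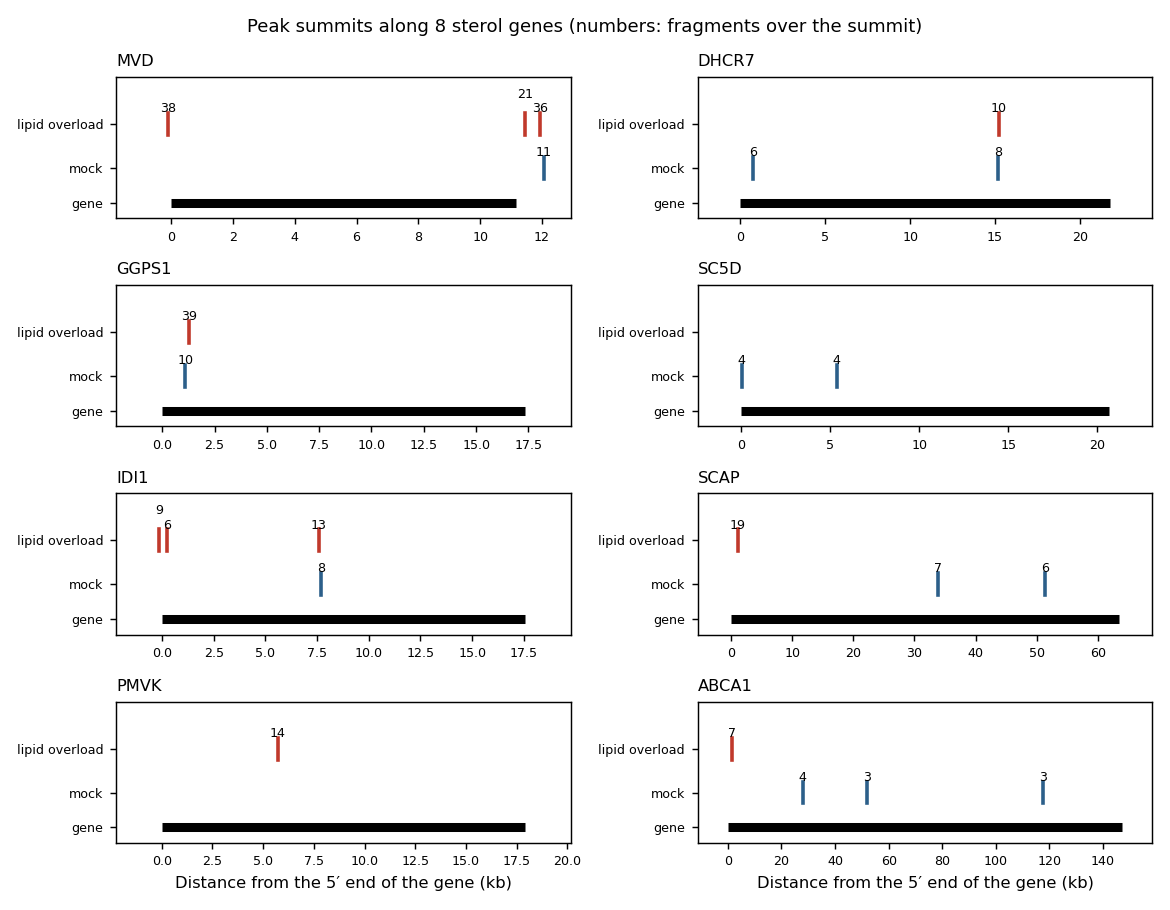
Summits of all peaks at or in 8 sterol genes along the distance from the 5′ end of the gene (kb), lipid overload above mock, with the gene as a black bar and the fragments over each summit as a number. MVD has its mock peak past its 3′ end, while GGPS1, IDI1 and PMVK have peaks at starts inside the gene and ABCA1 has none within 1 kb of its start.

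Of the 3 genes from squalene to lanosterol, 2 had gene-end peaks in both lists, a count too small to set beside the 12.1% of all protein-coding genes. SQLE, the squalene epoxidase, had 18 fragments in lipid overload (10.7 to 28.4) and 6 in mock (2.20 to 13.1). An end of its divergent transcript SQLE-DT lies in both peaks. LSS, which closes the ring to lanosterol, had 46 fragments in lipid overload (33.7 to 61.4) and 9 in mock (4.12 to 17.1). Its lipid-overload summit lay 120 bp upstream of the start and its mock summit 347 bp upstream, in overlapping peaks of 633 and 722 bp. The lipid-overload peak of LSS also holds a start of MCM3AP-AS1. FDFT1, the squalene synthase, had no gene-end peak in either list, and 1 lipid-overload peak of 16 fragments (9.15 to 26.0) inside the gene. FDFT1 has no annotated start in the promoter table, so whether this peak lies at a start could not be checked.

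The 9 genes from lanosterol to cholesterol were marked as often in mock as in lipid overload, 4 genes each, but only NSDHL was marked in both. In lipid overload 4 of 9 is near the 43.4% of all protein-coding genes, and in mock it is above their 13.4%. At a −log10 q or a fold of at least 5 lipid overload kept a count of 4 and mock had 1. NSDHL, a dehydrogenase of sterol demethylation, had 25 fragments in lipid overload (16.2 to 36.9) and 10 in mock (4.80 to 18.4), in peaks that also hold a start of the centrin gene CETN2. Another 3 genes were marked at an end by lipid overload alone. CYP51A1, the lanosterol demethylase, had 2 peaks, of 11 fragments (5.49 to 19.7) and 9 (4.12 to 17.1), and a start of CYP51A1-AS1 lies in the larger. MSMO1, the methyl sterol oxidase, had 10 (4.80 to 18.4). EBP, the sterol isomerase, had 11 at its start (5.49 to 19.7) and 6 at its 3′ end.

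All 3 sterol genes with a gene-end peak in mock only belong to this step, and their peaks were small. LBR, a sterol reductase that also holds chromatin at the inner nuclear membrane, had 4 fragments (1.09 to 10.2), 728 bp past its start. SC5D, a sterol desaturase, had 4 at its start (1.09 to 10.2) and 4 further in. DHCR7, the reductase of the last step, had 6 fragments in mock (2.20 to 13.1), 110 bp past its inner start. At an inner site of DHCR7 both lists had a peak, with 10 fragments in lipid overload (4.80 to 18.4) and 8 in mock (3.45 to 15.8). TM7SF2, another sterol reductase, and HSD17B7, which acts in sterol demethylation, had no peak at or in the gene in either list. For HSD17B7 the nearest lipid-overload peak lay 229 kb away and the nearest mock peak 9.57 kb away. For TM7SF2 these distances were 1.61 and 5.75 kb.

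All 4 genes that control SREBP2 had a lipid-overload peak at the start, and 2 of them also had a mock peak there. Of all protein-coding genes with a start, 45.5% had a lipid-overload peak within 1 kb of one and 14.0% a mock peak. With 4 genes, these shares are background only. INSIG1, itself switched on by SREBP2, had 36 fragments in lipid overload (25.2 to 49.8), 94 bp upstream of the start, and 13 in mock (6.92 to 22.2), 344 bp upstream. SREBF2 had 28 fragments in lipid overload (18.6 to 40.5) and 5 in mock (1.62 to 11.7). INSIG2 had 14 (7.65 to 23.5) and SCAP 19 (11.4 to 29.7) in lipid overload, each without a mock peak at the start. A start of LOC107985940 lies in the INSIG2 peak and a start of LOC105377073 in the SCAP peak. SCAP had 2 mock peaks deep inside the gene, of 7 and 6 fragments, where lipid overload had none.

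All 4 genes of sterol transport and storage were marked at an end in lipid overload and 3 in mock, where 43.4% and 13.4% of all protein-coding genes were. These counts rest on small peaks: at a −log10 q of at least 5 they were 1 and 1, and with peaks of at least 8 fragments the lipid-overload count was 2. NPC2, the soluble carrier that hands cholesterol to NPC1 in lysosomes, had the highest peak of all 31 genes in lipid overload, with 48 fragments (35.4 to 63.6), and 12 in mock (6.20 to 21.0). It ranked 163 in the lipid-overload list and 388 in the mock list. NPC1, its membrane partner, had 8 fragments in lipid overload (3.45 to 15.8) and 3 in mock (0.619 to 8.77). SOAT1, which esterifies cholesterol, had 7 in lipid overload (2.81 to 14.4) and 5 in mock (1.62 to 11.7), and STARD4, a cytosolic sterol carrier, had 6 in lipid overload only (2.20 to 13.1). The intervals of the 2 lysosomal partners, NPC2 and NPC1, do not overlap in lipid overload and do in mock, the shallower library. These intervals cover counting error alone, so no difference between the conditions can be read from them.

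Of the 3 genes that limit uptake or export cholesterol, 1 was marked at an end in lipid overload and 0 in mock, counts too small to set beside the 43.4% and 13.4% of all genes. MYLIP, a ubiquitin ligase that marks lipoprotein receptors for degradation, had 9 fragments at its start in lipid overload (4.12 to 17.1) and no mock peak. ABCA1 and ABCG1, the transporters that pass cholesterol to lipoproteins and are switched on by the oxysterol receptors, had no gene-end peak in either list. ABCA1, 147 kb long, had 1 lipid-overload peak of 7 fragments (2.81 to 14.4), 1.43 kb into the gene, which holds a start of LOC105376196. Its 3 mock peaks, of 3, 3 and 4 fragments, lay far inside, and none overlapped the lipid-overload peak. ABCG1 had 2 inner peaks in lipid overload, of 15 (8.40 to 24.7) and 8 fragments (3.45 to 15.8), and none in mock. Whether these peaks lie at a start could not be checked, as ABCG1 has none in the promoter table.

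Away from the gene ends the sterol genes stood close to other genes. Inside the gene, 10 of the 31 (32.3%, 16.7 to 51.4) held a peak in lipid overload, against 27.8% of all protein-coding genes, and 6 (19.4%, 7.45 to 37.5) in mock, against 12.8%. Some of these peaks lay within 1 kb of an annotated start inside the gene: PMVK and IDI1 in lipid overload, GGPS1 and IDI1 in mock. Inner peaks are therefore not all away from starts. Counting peaks at ends and inside alike, 27 genes (87.1%) had a peak in lipid overload, 18 (58.1%) in mock and 29 (93.5%) in either list, against 58.0%, 24.2% and 60.8% of all protein-coding genes. Outside the genes, the nearest peak lay at a median of 18.3 kb in lipid overload (range 1.54 to 425) and 49.7 kb in mock (5.06 to 3840). Over all protein-coding genes these medians were 21.5 and 75.8 kb.

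At starts, the summits lay mostly upstream, as they did over all protein-coding genes. In lipid overload 24 of the 39 peaks at or in the sterol genes had the summit within 1 kb of an annotated start. In mock 13 of 23 did. Of these, 17 of 24 (70.8%) and 9 of 13 (69.2%) lay upstream. Over all protein-coding genes the upstream shares were near these, 64.3% in lipid overload and 60.9% in mock. Of the 27 genes with a start in the table, 21 (77.8%, 57.7 to 91.4) had a lipid-overload peak within 1 kb of one, against 45.5% of the 15812 protein-coding genes with a start. In mock 13 (48.1%, 28.7 to 68.1) had one, against 14.0%. The 5′ end of the gene was marked in 20 of the 27 genes in lipid overload, against 42.6% of all such genes, and in 11 in mock, against 12.9%. The 3′ end was marked in 3 in lipid overload (MVK, MVD and EBP), against 5.87%, and in 1 in mock (MVD), against 1.49%. Within 1 kb of a start, 22 of 24 lipid-overload summits (91.7%) lay within 250 bp of it, against 73.5% over all such genes. In mock 9 of 13 (69.2%) did, against 72.4%. The median summit stood at -98.5 bp in lipid overload and -126 bp in mock, where a minus sign means upstream, and at -60.0 and -52.0 bp over all genes. Gene-end peaks of the sterol genes had a median width of 436 bp in lipid overload, the deeper library (28 peaks), and 250 bp in mock (14 peaks). Over all peaks of each list the medians were 196 and 180 bp. Widths at the gene ends of all genes were not measured, and a difference in width was not tested.

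**Figure D4:**
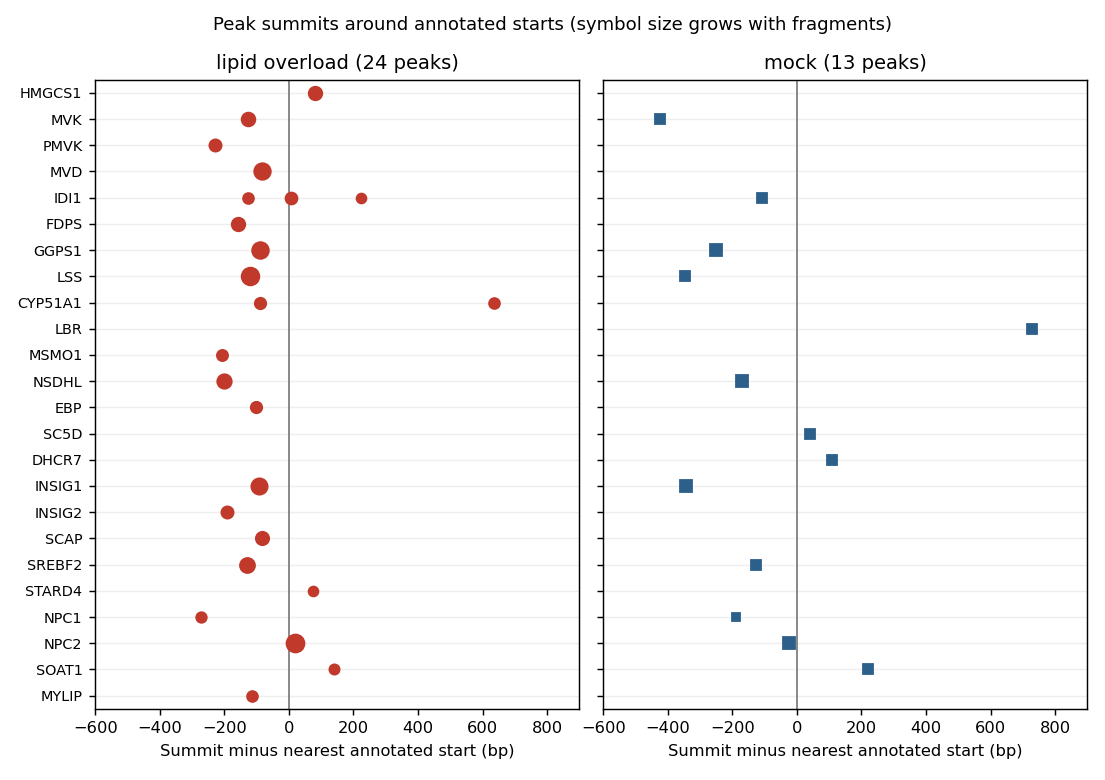
Distance of each peak summit from the nearest annotated start (bp, negative upstream) for sterol genes with a summit within 1 kb of one, lipid overload on the left (24 peaks) and mock on the right (13 peaks). Symbols grow with the fragments over the summit. Lipid-overload summits lie between -271 and 635 bp, with 17 of 24 upstream, and mock summits between -424 and 728 bp, with 9 of 13 upstream. Over all protein-coding genes 64.3% of lipid-overload and 60.9% of mock summits lay upstream.

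At 14 sites in 14 sterol genes, 11 at gene ends and 3 inside the gene, a mock peak was overlapped by a lipid-overload peak, and 9 of the 23 mock peaks had none over them. The ratio of fragments, lipid overload over mock, had a median of 2.72 (range 1.25 at DHCR7 to 5.60 at SREBF2), beside the depth ratio of 2.62. It was above the depth ratio at 9 of the 14 sites (64.3%), with MVK level with it to 3 digits. Over all 3898 such sites, at gene ends or elsewhere, the median was 2.25, and 36.7% were above. Gene ends alone were compared by the strongest gene-end peak of each list. For the 2390 protein-coding genes marked in both lists the median ratio was 2.57, with 48.4% above the depth ratio. For the 11 such sterol genes these values were 2.77 and 72.7%. SREBF2 had a ratio of 5.60 (2.13 to 18.6), LSS 5.11 (2.47 to 11.9), NPC2 4.0 (2.09 to 8.27) and GGPS1 3.90 (1.91 to 8.76). ACAT2 had 1.55 (0.683 to 3.65), SOAT1 1.40 (0.382 to 5.59) and DHCR7 1.25 (0.444 to 3.64). The interval held the depth ratio at all 14 sites, and the median over all shared sites at 13, with LSS above that median. The LSS interval does hold the gene-end median of 2.57. Ratios of the authors' deposited folds, which carry a pseudocount and the local background, were smaller: 2.62 for SREBF2, 2.39 for LSS, 2.04 for NPC2, 0.983 for ACAT2 and 0.955 for SOAT1.

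**Figure D5:**
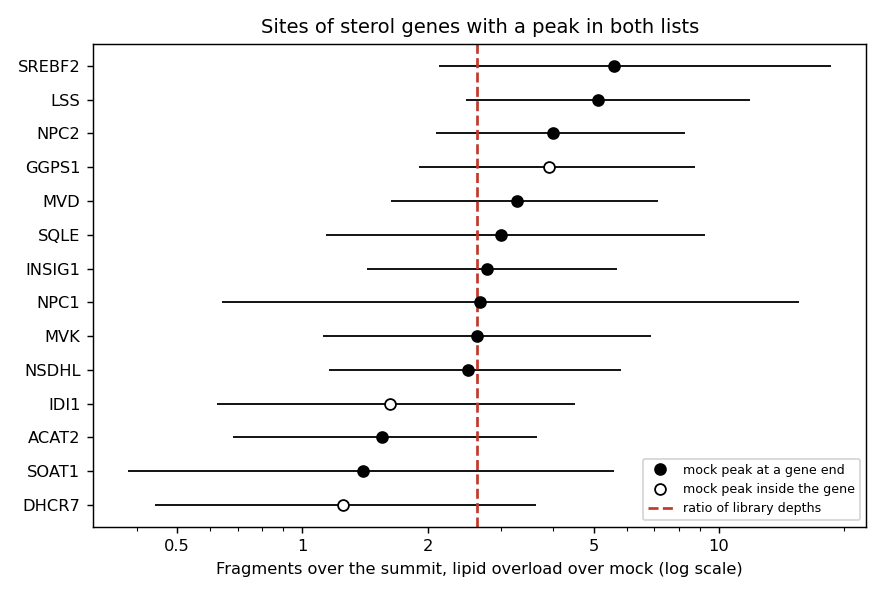
Ratio of fragments over the summit, lipid overload over mock (log scale), with exact 95% intervals, at the 14 sites of sterol genes that have a peak in both lists. Filled circles are mock peaks at a gene end and open circles mock peaks inside the gene. The dashed line is the ratio of library depths, 2.62, and every interval crosses it.

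Promoters of these genes shared motifs that the choice of the genes did not use. The CCAAT box was in 20 of the 27 genes with a window (74.1%), against 42.1% of the 15812 protein-coding genes with one, and the GC box in 25 (92.6%), against 64.2%. On the strand of the gene alone the CCAAT box was in 9 (33.3%), against 24.5%. In the windows shown above, MVD has 3 CCAAT boxes, NPC2 has 2, and PMVK has none. The core CACCCCA was in 6 genes (22.2%, against 10.8%) and the E-box in 5 (18.5%, against 10.9%). No sterol gene with a window held the direct repeat, which 0.0126% of all genes did. Of the 20 genes with a CCAAT box, 14 (70.0%) had one under a lipid-overload peak, against 32.2% of all genes with the box, and 9 (45.0%) under a mock peak, against 8.32%. Start peaks, needed for this, were at 77.8% of the 27 genes in lipid overload and 48.1% in mock.

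The 10-base sterol regulatory element was in SREBF2 alone among the 27, and in 10 of the 15812 genes (0.0632%). It lies at chr22:41832971-41832980, positions -134 to -125 from the start. The lipid-overload summit, at position 41832976, and the mock summit, at 41832979, both fell in these 10 bases. The mock summit rests on 5 fragments, and neither list gives an error for the position of a summit. Of the 10 genes with the element, 4 had a start peak in lipid overload and 2 in mock, and SREBF2 was the one with a summit in it, in each list. A match to the letters is not a measured binding site.

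A separate list held 25 other genes of sterol handling. In lipid overload 15 of them (60.0%, 38.7 to 78.9) were marked at a gene end, against 43.4% of all protein-coding genes. In mock 4 (16.0%, 4.54 to 36.1) were, near the 13.4% of all genes. These intervals overlap those of the 31 genes in both lists. The difference between the 2 lists was not tested. The highest gene-end peaks of this list were at 4 genes. OSBPL2, an oxysterol-binding protein, had 50 fragments in lipid overload (37.1 to 65.9) and no mock peak. TMEM97, an endoplasmic reticulum protein that binds sterols and NPC1, had 42 (30.3 to 56.8) in lipid overload and 22 (13.8 to 33.3) in mock, more than any of the 31 genes in mock. FAF2, which helps to extract proteins from the endoplasmic reticulum for degradation, had 27 (17.8 to 39.3) in lipid overload and 6 (2.20 to 13.1) in mock. NR1H2, an oxysterol receptor, had 25 in lipid overload (16.2 to 36.9), at its 3′ end in a peak that holds a start of the DNA polymerase gene POLD1, and none in mock.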

How the data were processed

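γH2AX was mapped by CUT&Tag in HepG2 cells, with 100000 cells and 14 PCR cycles per assay, per the labels. Groups came from sample titles. The submitters' processing notes name hg38 and the tools MACS2 2.1.2, BWA, deepTools and FastQC. Not given in the sources used here are peak-calling settings and any IgG control. The deposited lists, 1 per library, give each peak's score, its fold (a ratio), its summit offset, and p and q as −log10 values. These are the authors' own, and they ranked, filtered or described peaks of the same list and gave the fragment numbers.

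Whole fragment numbers were solved from fold and p under the MACS2 formulas (pseudocount 1; error in log10 p below 0.0001 for 100% of peaks; checked on simulated data). Depth came from the genome background over fragment length. Python 3.11.15, numpy 2.4.6, pandas 2.3.3 and scipy 1.17.1 were used. Of the genes in the table, 679 placed out of position order by over 1000000 bp were set aside. Overlap needs 1 bp. "Strongest" means highest −log10 q. All members are named; of other sterol genes, the 4 with the most fragments in a gene-end peak. Promoters printed follow a fixed choice of 6, plus SREBF2. Members and lists were chosen with earlier results of these data known. Without replicates, no test was run. Alternatives were stricter q or fold, equal list lengths, a depth-scaled fragment minimum, other gene-end widths, other overlap rules, deposited folds in place of fragments, and motifs on 1 strand.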

Additional observations from a re-analysis of the deposited data

How the results depend on the processing

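Peak number limits these counts, since many mock peaks rest on few fragments. At a −log10 q of at least 5, the sterol genes with a gene-end peak numbered 3 in mock, 3 in both lists and 0 in mock only, those with an inner peak 4 in lipid overload and 1 in mock, and the other sterol genes with a mock gene-end peak 1. At a fold of at least 5 the mock count was 7, the count in both 7, that in mock only 0 and that of inner lipid-overload peaks 5. With equal list lengths, mock only stood at 5 and inner lipid-overload peaks at 3. With a minimum of 8 fragments in lipid overload, inner lipid-overload peaks stood at 5, and with gene ends of 500 bp mock only stood at 1. By construction, each keeps fewer peaks or a narrower window. Of 56 counts by pathway step, 13 moved by over 1.5 times, in mock or in transport and storage. The other 63 of 77 counts over the lists stayed within 1.5 times of the reported one. Among them, the lipid-overload count was 17 to 25 under all alternatives, including one chosen after seeing the data, which counts peaks at any annotated start (21). No paired analysis was possible because each group has 1 sample, and no replicate could be left out.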
